A study of Mus musculus with 15 samples.

Results

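A set of 9 genes widely used as markers of macrophages (Adgre1, Cd14, Mrc1, Vcam1, Cd163, Fcgr1, Mertk, Spic and Lyz2) was followed through 15 RNA-seq libraries of sorted mouse splenic T cells from a model of acute graft versus host disease (aGvHD). The members are the 9 genes of these symbols among the 4567 genes that the authors listed in at least 1 of 4 comparisons between populations. The members were thus selected on the counts of these libraries, through the authors' fold changes and adjusted p-values in those comparisons. It held 8 of the 9 genes in the table of 972 genes for CD8 Flica-positive against CD8 Flica-negative cells, all 9 in the table of 3461 genes for CD8 Flica-positive against control CD8 cells, 3 in the table of 2496 genes for CD8 Flica-negative against control CD8 cells and 3 in the table of 2069 genes for CD4 Flica-negative against control CD4 cells. Differences within these 4 comparisons are therefore given as a description, without a test. Cd14 was in all 4 tables, and Mertk was only in the one for CD8 Flica-positive against control CD8 cells.

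The Flica reagent fluoresces in cells where caspase-1, the protease switched on by inflammasomes, is active. There were 5 populations of 3 libraries each. CD4 control and CD8 control cells came from C57Bl6 mice on day 0 without treatment and, per the study's methods, were Flica-negative. CD4 Flica-negative, CD8 Flica-negative and CD8 Flica-positive cells came from spleens on day 7, after C57Bl6 T cells and bone marrow had been given to irradiated Balb/C mice. All were sorted by FACS for CD3 with CD4 or CD8, and the study's methods give a pool of mice with aGvHD, and fewer control mice, at times a single one, for a sort. The labels call the 3 libraries of a population biological replicates, and they do not say which mice each library holds. The day 0 mice differ from the day 7 mice in treatment, irradiation and day at once, and these cannot be told apart.

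Macrophages engulf dying cells, microbes and aged red cells, and in the spleen they fall into populations that line the red pulp and the marginal zone. Red pulp macrophages depend on the transcription factor SpiC, carry F4/80 (Adgre1) and VCAM1 on their surface, and recycle the iron of the red cells they take up. CD14, the high-affinity IgG receptor CD64 (Fcgr1) and lysozyme (Lyz2) are shared with monocytes, and lysozyme is abundant in neutrophils as well. None of these is a defining gene of T cells.

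Promoters were read for 6 of the 9 genes (Mrc1, Mertk, Fcgr1, Cd163, Spic and Lyz2) from RefSeq on GRCm38.p6, each running from 250 bases before to 50 bases after the start of transcription. They were searched for GAGGAA on both strands (TTCCTC on the strand shown), the core letters of sites bound by PU.1, the master factor of myeloid cells, and by SpiC itself. The 2 promoters with a match, and that of Lyz2, the member with the highest counts, are shown, with matches in capitals.
Mrc1, chr2:14229164-14229463, plus strand: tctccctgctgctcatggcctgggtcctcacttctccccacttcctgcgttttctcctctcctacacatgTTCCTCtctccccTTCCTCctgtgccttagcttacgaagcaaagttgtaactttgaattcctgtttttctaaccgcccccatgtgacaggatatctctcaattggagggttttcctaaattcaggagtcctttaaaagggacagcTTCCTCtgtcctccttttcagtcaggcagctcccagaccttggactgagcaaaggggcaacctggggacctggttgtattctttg
Fcgr1, chr3:96293920-96294219, minus strand: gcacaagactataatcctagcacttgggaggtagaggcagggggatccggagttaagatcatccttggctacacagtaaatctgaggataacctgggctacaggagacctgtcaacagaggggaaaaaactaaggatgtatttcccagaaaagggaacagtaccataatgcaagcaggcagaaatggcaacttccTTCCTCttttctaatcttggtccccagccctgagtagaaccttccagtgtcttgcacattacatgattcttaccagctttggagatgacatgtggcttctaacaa
Lyz2, chr10:117282223-117282522, minus strand: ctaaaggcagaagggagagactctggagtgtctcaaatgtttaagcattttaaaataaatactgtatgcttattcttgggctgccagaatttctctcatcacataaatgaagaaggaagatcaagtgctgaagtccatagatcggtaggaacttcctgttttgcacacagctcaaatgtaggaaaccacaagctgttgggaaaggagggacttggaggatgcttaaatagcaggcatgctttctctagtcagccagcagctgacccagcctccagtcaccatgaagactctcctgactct
The Mrc1 promoter held 3 matches, whose first bases lay at -180, -167 and -35 relative to the start, and the Fcgr1 promoter held 1, at -55. No match lay in the windows of Mertk, Cd163, Spic or Lyz2. Of 32851 promoters of this length, 28.3% held a match, so that 2 of 6 is a description of these windows and no more.

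Reads on the listed genes came to 2143579 to 3184674 a library in the 12 control and Flica-negative libraries and to 7310375 to 11046043 in the 3 CD8 Flica-positive libraries. Depth over the whole transcriptome is unknown. The authors' size factors, by which counts were divided to give normalized counts, lay between 0.836 and 1.25. Mitochondrial genes took 15.1% to 28.8% of the listed counts in the 12 other libraries and 42.8% to 51.7% in the CD8 Flica-positive ones. Cd8a, the only one of 19 T cell markers among the listed genes, had a mean of 10759 normalized counts in CD8 Flica-positive, 13875 in CD8 Flica-negative and 19748 in CD8 control cells, against 69.4 or less in both CD4 populations. Every CD8 library lay above every CD4 library for this gene.

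All 9 macrophage markers were highest in CD8 Flica-positive cells. For each of the 9, every one of the 3 CD8 Flica-positive libraries lay above all 12 other libraries, which held for 1001 of the 4567 listed genes (21.9%). Against CD8 Flica-negative cells the 3 libraries of each did not overlap for 9 of 9 markers, where 29.9% of all listed genes were above without overlap. Against CD8 control cells this held for 9 of 9 as well, where 48.2% of all listed genes did so. The log2 fold change over CD8 Flica-negative cells had a median of 3.88 for the 9 markers and 0.41 for all listed genes. With TMM scaling over the listed genes in place of the authors' size factors, that median over the listed genes shifted by -0.55 over CD8 Flica-negative cells and by -1.65 over CD8 controls, and 9 of 9 markers were above without overlap in both. Because the genes were listed for these differences, the counts describe the members and nothing is read from them. In bulk libraries a larger number of cells of one type and more RNA per cell cannot be told apart.

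**Figure D1:**
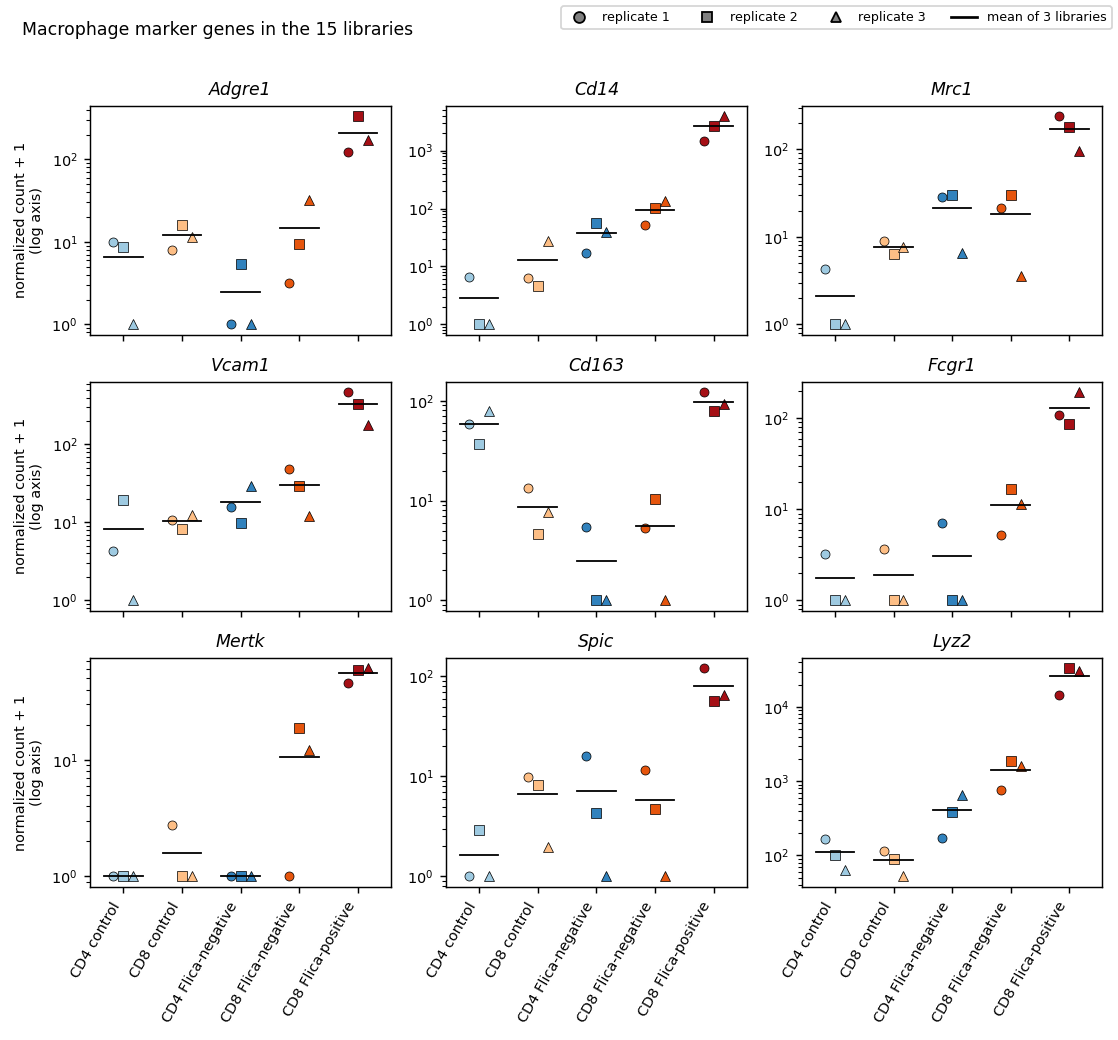
Normalized counts with 1 added (log axis) of the 9 macrophage markers in the 5 populations. Each symbol is a library, its shape gives the replicate number, and the line is the mean of 3. In every panel the 3 CD8 Flica-positive libraries lie above all others, by the least in Cd163, where the lowest of them is at 77.7 and the highest CD4 control library at 77.4.

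The markers tied to the red pulp come first. Spic, which encodes the transcription factor that red pulp macrophages need, lies at 10:88674772-88685015 (minus strand, GRCm38). It had 120 (replicate 1), 55.3 and 64.6 normalized counts in the CD8 Flica-positive libraries. CD8 Flica-negative cells had 10.7, 3.73 and 0. The CD8 Flica-positive libraries were all higher, replicate 1 by the widest margin, and the ratio of the means (79.8 ± 34.7 against 4.80 ± 5.41, SD, n = 3) was 16.6, with a log2 fold change of 4.05 (standard error 1.11). It was 5.35 without CD8 Flica-negative replicate 1 and 3.46 without replicate 3. In the controls Spic had at most 8.81 in CD8 and 1.93 in CD4 libraries, and in CD4 Flica-negative cells 14.99, 3.35 and 0. These low values come from 17 reads or fewer a library, and a single read was worth 0.801 to 1.20 normalized counts.

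Vcam1 encodes an adhesion molecule that binds the integrin VLA-4 and marks red pulp macrophages, and is also made by stromal and endothelial cells. The gene lies at 3:116109949-116129688 (minus strand). Its CD8 Flica-positive libraries had 467, 330 and 177 normalized counts, in order of replicate number, and the CD8 Flica-negative ones 47.9, 28.0 and 11.2. In both populations replicate 1 was the highest and replicate 3 the lowest, and their ranges were far apart. The means of 324 ± 145 and 29.1 ± 18.4 (SD, n = 3) differed 11.2-fold, and by 3.49 ± 0.58 (standard error) on the log2 scale. CD4 Flica-negative libraries had 14.99, 8.93 and 28.0, which overlapped both the CD4 controls (3.35, 18.4 and 0) and the CD8 Flica-negative cells. None of 13 endothelial or stromal markers was among the listed genes, so that their levels were not analysed here. The part of such cells in the Vcam1 counts was not tested.

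Cd163, the scavenger receptor for haemoglobin bound to haptoglobin, lies at 6:124304656-124330527 (plus strand). CD8 Flica-positive cells had 121, 77.7 and 90.9 normalized counts and CD8 Flica-negative cells 4.26, 9.33 and 0. The ratio of the means (96.4 ± 22.1 against 4.53 ± 4.67, SD, n = 3) was 21.3, and the log2 fold change of 4.38 (standard error 1.03) became 5.49 without CD8 Flica-negative replicate 2 and 3.79 without replicate 3. The population next to CD8 Flica-positive for Cd163 was CD4 control. CD4 control libraries had 58.1, 35.8 and 77.4, and the highest of them, from 87 reads, had an exact Poisson interval of 62.0 to 95.4 that takes in the lowest CD8 Flica-positive library, from 66 reads (60.1 to 98.8). Such intervals cover counting error only. The gap between these populations was thus within counting error for that pair of libraries.

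A pair of receptors for material to be cleared follow. Mrc1 encodes the mannose receptor CD206, which takes up glycoproteins with exposed mannose, and lies at 2:14229392-14332057 (plus strand). Its values were 239, 181 and 94.5 normalized counts in CD8 Flica-positive and 20.2, 28.9 and 2.59 in CD8 Flica-negative libraries. The lowest CD8 Flica-positive library was 3.26-fold above the highest of the 12 others, a CD4 Flica-negative one with 29.0. The means of 172 ± 72.8 and 17.3 ± 13.4 (SD, n = 3) gave a ratio of 9.95 and a log2 fold change of 3.31 (standard error 0.76), or 3.92 without CD8 Flica-negative replicate 2.

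Mertk encodes the receptor tyrosine kinase that recognises dying cells through the bridging proteins GAS6 and protein S. It lies at 2:128698956-128802894 (plus strand). It had 44.6, 57.7 and 59.8 normalized counts in CD8 Flica-positive libraries, the narrowest spread of the 9 members there, and 0, 17.7 and 11.2 in CD8 Flica-negative ones. The ratio of the means (54.0 ± 8.26 against 9.65 ± 8.97, SD, n = 3) was 5.60, the lowest of the 9, and this was the member that the authors' table for that comparison did not hold. Its log2 fold change was 2.46 (standard error 1.13), and 3.21 without CD8 Flica-negative replicate 2. No read of Mertk was counted in any of the 6 CD4 libraries, and 2 reads in all in the CD8 controls. Against the CD8 controls, taken at a floor of 3 reads a library, it was at least 19.7-fold higher in CD8 Flica-positive cells.

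Adgre1 and Fcgr1 are the general markers of tissue macrophages. Adgre1, which encodes F4/80, lies at 17:57358691-57483527 (plus strand) and had 123.1, 333 and 169 normalized counts in CD8 Flica-positive cells. In CD8 Flica-negative cells it had 2.13, 8.40 and 31.1, so that 1 library, replicate 3, carried most of that group's mean. The ratio of the means (208 ± 110.5 against 13.9 ± 15.2, SD, n = 3) was 15.02, with a log2 fold change of 3.88 (standard error 0.80), and without that replicate the log2 fold change was 5.25. CD8 controls had 7.05, 15.2 and 10.6.

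Fcgr1, at 3:96282909-96293969 (minus strand), had 107, 84.8 and 193 normalized counts in CD8 Flica-positive and 4.26, 15.9 and 10.4 in CD8 Flica-negative libraries. The ratio of the means (128 ± 57.0 against 10.2 ± 5.80, SD, n = 3) was 12.6. The controls held 2 reads in CD4 and 3 reads in CD8, each within a single library. The CD8 Flica-positive mean was at least 46.7-fold above the floor of the CD8 controls.

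Cd14 and Lyz2, the 2 members shared most widely with other myeloid cells, had the highest counts. Cd14, the co-receptor that hands lipopolysaccharide to TLR4, lies at 18:36725067-36726798 (minus strand). Its CD8 Flica-positive libraries had 1437, 2689 and 3938 normalized counts, the CD8 Flica-negative ones 51.1, 102 and 132. In both populations replicate 1 was the lowest and replicate 3 the highest, and the ratio within a number was 28.1, 26.4 and 29.8, although the labels do not say that a number pairs libraries. The log2 fold change was 4.82 (standard error 0.44). CD8 controls had 5.29, 3.58 and 26.9, and the ratio of the means against them was 225. The log2 fold change over them was 7.82, and 9.20 without CD8 control replicate 3, which held most of the Cd14 reads of its group.

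Lyz2, lysozyme M, lies at 10:117277331-117282321 (minus strand). It had 14703, 33194 and 30754 normalized counts in CD8 Flica-positive libraries and 768, 1862 and 1592 in CD8 Flica-negative ones. Replicate 1 was the lowest of both populations, and the ratio within a number was 19.1, 17.8 and 19.3, although the level itself differed up to 2.26-fold between libraries of one population. The log2 fold change was 4.22 (standard error 0.39), and against the CD8 controls the ratio of means was 307. Lyz1, the near-identical copy beside it, had no row among the listed genes, so that the split of reads between the copies by the authors' counting is uncertain.

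Per kilobase of exon, the mean level in CD8 Flica-positive cells ran from 12.5 normalized counts per kilobase for Mertk to 19922 for Lyz2. Cd14 followed Lyz2 with 1552, and the other members lay far lower, with 64.3 for Adgre1, 49.4 for Fcgr1, 36.6 for Vcam1, 26.9 for Mrc1, 20.8 for Spic and 17.7 for Cd163. By the means, Lyz2 took the largest part of the sum over the 9 genes in every population. In CD4 control replicate 3, however, Cd163 (77.4) was above Lyz2 (63.1). The sum ran from 17361 to 37002 normalized counts in CD8 Flica-positive libraries and 909 to 2076 in CD8 Flica-negative ones. It was 254 to 728 in CD4 Flica-negative, 141 to 248 in CD4 control and 114 to 171 in CD8 control libraries.

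The 3 CD8 Flica-positive libraries did not carry the 9 markers in the same proportions. Spic, Vcam1, Mrc1 and Cd163 were highest in replicate 1, which held 49.9%, 47.9%, 46.4% and 41.7% of their normalized counts summed over the 3 libraries. Cd14, Lyz2 and Adgre1 were lowest in replicate 1, with 17.8%, 18.7% and 19.7%, as was Mertk, by less, with 27.5%. Adgre1 had its highest share in replicate 2 (53.3%), and Cd14 (48.8%) and Fcgr1 (50.1%) in replicate 3. Over all listed genes the median shares were 31.8%, 33.1% and 32.5%. The sets of members named here were seen in the values, and the shares are a description of 3 libraries.

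**Figure D2:**
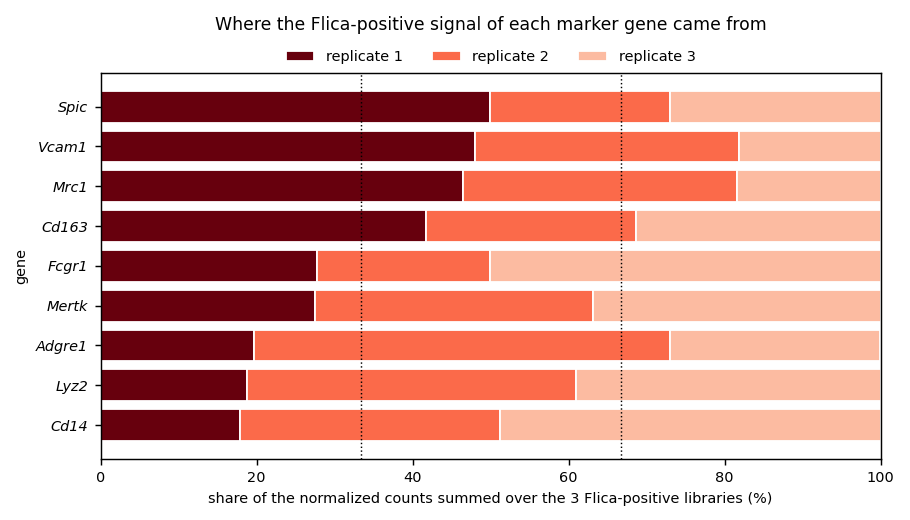
Share (%) of each marker's normalized counts, summed over the 3 CD8 Flica-positive libraries, that each replicate held. Dotted lines mark equal shares. Replicate 1 held 49.9% of Spic and 17.8% of Cd14, the 2 ends of the order.

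Other genes divided in the same 2 ways. Replicate 1 held 92.6% to 93.7% of the counts of the globin genes Hba-a1, Hba-a2, Hbb-bs and Hbb-bt, whose proteins carry oxygen in red cells, and 56.6% of Blvrb, which acts in haem breakdown. Among the complement genes of macrophages, named after their values were seen, it held 50.4% of C1qa, 51.0% of C1qb and 42.1% of C1qc. Slc40a1, the iron exporter ferroportin and a product of red pulp macrophages, was even across the libraries with 34.5%, 32.6% and 32.9%. The 14 neutrophil genes had between 13.3% and 25.0% in replicate 1, the side on which Lyz2 and Cd14 lay. Most of the 11 listed monocyte genes lay on that side as well, from 16.8% (Fn1) to 28.5% (Plac8). Cx3cr1 (40.4%) and Ccr2 (36.6%) were the monocyte genes that did not. The part of red cells, neutrophils or any other cell in the marker levels was not tested.

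The other marker lists were read beside the members. Of 12 red pulp macrophage genes 10 were listed, and 8 of these were above CD8 Flica-negative cells without overlap in CD8 Flica-positive cells. Slc40a1 had 27.3 ± 13.3 normalized counts in CD8 Flica-negative and 588 ± 18.2 in CD8 Flica-positive cells (SD, n = 3). Hmox1, which opens the haem ring, had 242 ± 48.4 and 630 ± 113, and Axl, a receptor kinase of the same family as Mertk, had means of 560 and 650. Of 21 other macrophage genes 11 were listed and 9 were above without overlap, among them Mpeg1, a pore-forming protein of phagocytes, with 4921 ± 1373 against 323 ± 62.5. Maf was below without overlap, with means of 871 in CD8 Flica-positive and 1407 in CD8 Flica-negative cells. Csf1r, Cd68, Marco, Timd4, Msr1 and Vsig4, which are also used to define macrophages, were not among the listed genes, so that their levels were not analysed here.

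All neutrophil markers and most of the listed monocyte markers moved with the 9 genes. All 14 neutrophil genes were listed and all 14 were above without overlap, and their summed level was 200517 to 387729 normalized counts in CD8 Flica-positive, 11864 to 18188 in CD8 Flica-negative, 2670 to 7795 in CD4 Flica-negative and 60.9 to 144 in control libraries. Ngp, a granule protein of neutrophils, had 84228 ± 32490 normalized counts in CD8 Flica-positive cells (SD, n = 3). Of 13 monocyte genes 11 were listed and 7 were above, where 29.9% of all listed genes were. Ccr2 was the 1 below without overlap, with means of 3470 in CD8 Flica-positive and 5076 in CD8 Flica-negative cells. Cx3cr1 (1328 and 2069) and Nr4a1 (9781 and 11104) also had lower means in CD8 Flica-positive cells. Of 10 erythroid genes 6 were listed and 1 was above, and their sum ran from 1398 to 110549 within the 3 libraries. The counts were 3 of 9 listed B cell genes and 2 of 5 listed dendritic cell genes. The genes were listed partly for this difference, so these counts are a description and do not rank cell types. The part of these cells in the result for the 9 markers was not tested.

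**Figure D3:**
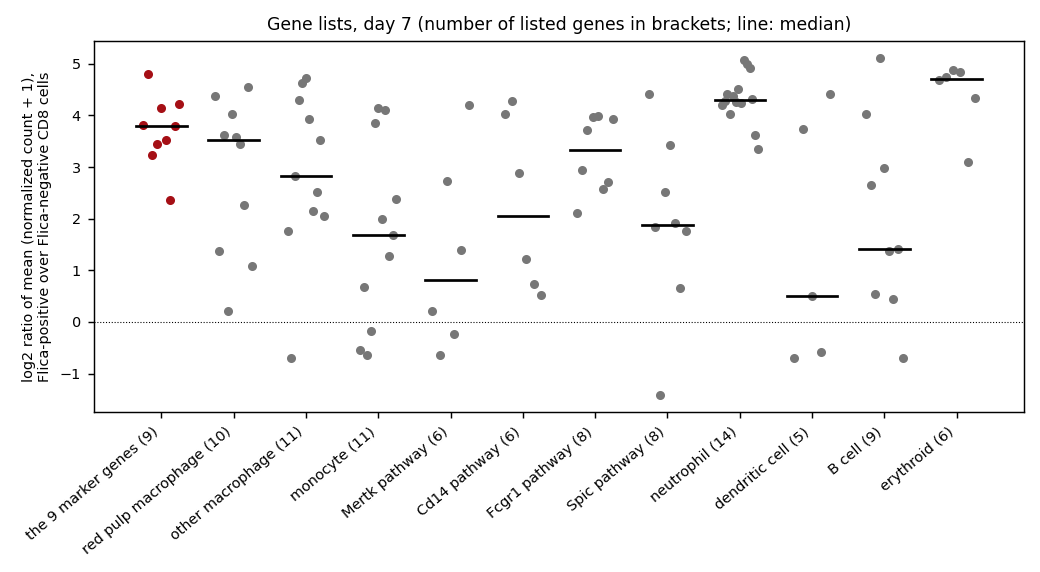
Log2 ratio of the mean normalized counts (1 added) of CD8 Flica-positive over CD8 Flica-negative cells, with 1 point a gene and a line at each list's median. The 9 markers have a median of 3.80, the red pulp list 3.52, the neutrophil list 4.30 and the monocyte list 1.68, and the erythroid median of 4.71 rests mostly on replicate 1.

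Genes that work with 4 of the members were counted in the same way. For Fcgr1 these are the shared signalling chain Fcer1g, the low-affinity Fc receptors and the kinases below them, and 8 of 10 were listed and all 8 were above without overlap in CD8 Flica-positive cells. Fcer1g had 1966 ± 477 normalized counts there against 457 ± 50.7 (SD, n = 3). For Cd14 and its partners in Toll-like receptor signalling, 6 of 12 were listed and 5 were above, with Lbp, the carrier of lipopolysaccharide, at means of 976 and 49.5. For Mertk, 6 of 14 genes of dying-cell clearance were listed and 3 were above. For Spic, 8 of 12 related transcription factors were listed, 6 were above, among them Spi1, which encodes PU.1, with means of 2543 and 119, and 1, Bach2, was below with 47.1 and 128. The background for these counts is the same 29.9%.

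On day 7 reads of some of the markers were also found in Flica-negative cells. With all libraries kept, the share of members above the controls without overlap was in neither lineage larger than that of all listed genes. In CD8 Flica-negative cells, 3 of the 9 (Cd14, Fcgr1 and Lyz2) were above the CD8 controls without overlap, where 40.7% of all listed genes were. Lyz2 had means of 1408 ± 570 and 85.3 ± 32.4 normalized counts (SD, n = 3), a ratio of 16.5, and Cd14 had 94.96 ± 40.9 and 11.9 ± 13.01, a ratio of 7.96 (log2 fold change 2.99, and 4.39 without CD8 control replicate 3). Fcgr1 was at least 3.71-fold above the floor of the controls. Its lowest library held 4 reads (4.26 normalized counts) and the highest control library 3 reads (2.64). With DESeq2 size factors over the listed genes, Fcgr1 overlapped the controls. Vcam1 had a ratio of 3.07, Mrc1 2.58, Adgre1 1.27, Spic 0.849 and Cd163 0.600, and the libraries of these 5 overlapped. Mertk, with 0, 17.7 and 11.2 normalized counts, was at least 3.52-fold above the floor of the controls and overlapped them as well. On the log2 scale Adgre1 went from 0.35 to -1.03 without CD8 Flica-negative replicate 3, Spic from -0.25 to 0.33 without the same library and to 0.21 without CD8 control replicate 1, so that the direction of both turned with a single library. Mrc1 went from 1.35 to 0.75, and Cd163 from -0.73 to -1.81, without CD8 Flica-negative replicate 2. In the absence of CD8 Flica-negative replicate 3 the count of members without overlap was 5 rather than 3.

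In CD4 Flica-negative cells, 3 of the 9 (Cd14, Mrc1 and Lyz2) were above the CD4 controls without overlap, where 35% of all listed genes were, and 1 (Cd163) was below, where 31.4% were. Cd14 had 15.9, 54.7 and 38.4 normalized counts against 5.58, 0 and 0 in the CD4 controls. Mrc1 had 27.3, 29.0 and 5.61 against 3.35, 0 and 0, at least 6.95-fold higher. Lyz2 had 170, 381 and 656 against 166, 101 and 63.1, and its lowest library cleared the highest control by little. With DESeq2 size factors taken over the listed genes, Cd14 alone of these 3 remained without overlap.

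Cd163 went the other way. It had 4.41, 0 and 0 normalized counts in CD4 Flica-negative cells, from 5 reads in all, against 57.1 ± 20.8 (SD, n = 3) in the CD4 controls. The ratio of the control mean to the day 7 mean was 38.8. With Cd163 present in the authors' table for this comparison, this too is a description.

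The CD4 and CD8 cells were compared with each other in 2 contrasts that were not among the authors' 4 tables, and these were tested with edgeR's quasi-likelihood test over all listed genes. The libraries are the same ones on which the genes were listed, so these tests are not independent of the choice of members. The first asked whether Flica-negative CD4 and CD8 cells differed on day 7. Of the 4483 genes tested 22.7% passed an adjusted p of 0.05 in either direction, and 1 of the 9 members did. Lyz2 was 3.50-fold lower in CD4 cells, with means of 402 ± 244 and 1408 ± 570 normalized counts (SD, n = 3) and with all 3 CD4 libraries below all 3 CD8 libraries. Its log2 difference, CD4 minus CD8, was -1.81 (standard error 0.37, 95% interval -2.57 to -1.04, edgeR adjusted p = 0.0013).

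Cd14 lay on the same side without passing, at -1.39 (95% interval -2.45 to -0.33, edgeR adjusted p = 0.055), with 15.9, 54.7 and 38.4 normalized counts in CD4 and 51.1, 102 and 132 in CD8 cells. It passed without CD4 Flica-negative replicate 2 (edgeR adjusted p = 0.0429) and without CD8 Flica-negative replicate 1 (edgeR adjusted p = 0.0167). Mertk, with no read in CD4 cells against 0, 19 and 13 reads in CD8 cells, did not pass in edgeR (adjusted p = 0.065). It passed in DESeq2 (adjusted p = 0.0499), and in edgeR with all 5 populations in the fit (adjusted p = 0.0477) or without CD8 Flica-negative replicate 1 (adjusted p = 0.0343). The other 6 members did not pass, with edgeR adjusted p from 0.173 to 0.912, and their intervals were wide. That of Vcam1 ran from -2.30 to 0.84, and that of Mrc1 from -1.63 to 2.14, so that for Mrc1 a difference of several fold either way lies within the interval. The median log2 ratio of means (1 added) was -1.36 for the 9 members and -0.09 for all listed genes.

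The other lists beside Lyz2 in this contrast were led by the neutrophil genes, of which 11 of 14 were lower in CD4 cells and none was higher. S100a8, a calcium-binding protein of neutrophils and monocytes, had a log2 difference of -1.86 (standard error 0.27) in edgeR. Of 11 tested monocyte genes 7 were lower in CD4 cells and 3 were higher. Of 8 tested genes of the Fcgr1 list 5 were lower in CD4 cells, among them Fcer1g with -2.34 (standard error 0.37). None of the 9 tested red pulp genes passed in either direction. Of 11 other macrophage genes, Mpeg1 was lower in CD4 cells, and Apoe, Cd81 and Maf were higher, of which Maf is also a factor of helper T cells. The part of neutrophils or monocytes in the difference of Lyz2 was not tested.

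**Figure D4:**
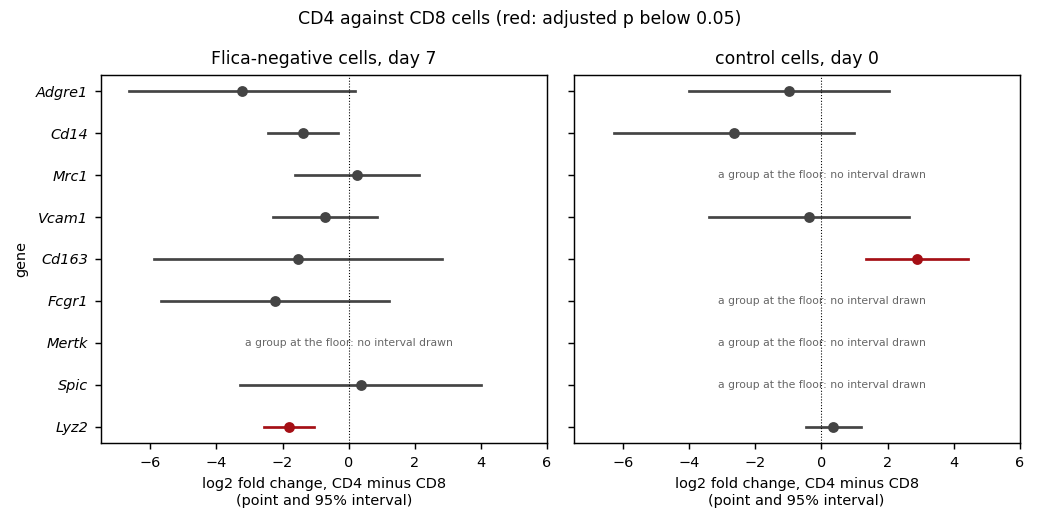
Log2 fold change, CD4 minus CD8, with its 95% interval from edgeR for each marker, in Flica-negative cells on day 7 and in control cells on day 0. Lyz2 on day 7 (-1.81) and Cd163 on day 0 (2.90), in red, passed an adjusted p of 0.05, and no interval is drawn where a group was at the floor of 3 reads a library.

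The second contrast asked the same of control cells on day 0, where 12.8% of 4322 genes passed in either direction and again 1 of the 9 members did. Cd163 was 7.56-fold higher in CD4 control than in CD8 control cells, with 58.1, 35.8 and 77.4 normalized counts against 12.3, 3.58 and 6.73. Its log2 difference was 2.90 (standard error 0.76, 95% interval 1.35 to 4.45, edgeR adjusted p = 0.0065). The CD4 control libraries also took part in the comparison for which the authors listed Cd163. With all 5 populations in the fit the difference was 2.90 as well and no longer passed (edgeR adjusted p = 0.136).

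The other 8 members did not pass on day 0, with edgeR adjusted p from 0.451 to 0.971. Lyz2 had 110 ± 52.3 normalized counts in CD4 and 85.3 ± 32.4 in CD8 control cells (SD, n = 3), a log2 difference of 0.36 with an interval from -0.47 to 1.19. Its difference between CD4 and CD8 cells thus passed on day 7 and not on day 0, and whether the 2 differences differ was not tested. Of the other lists, none of 12 tested neutrophil genes and none of 10 red pulp genes passed on day 0, while Lgmn, Cd81 and Maf, of 11 other macrophage genes, were higher in CD4 control cells. Lgmn, a lysosomal protease, had 374 ± 44.4 normalized counts in CD4 and 88.6 ± 46.7 in CD8 control cells.

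Set in order of their means, the populations began with CD8 Flica-positive for all 9 genes, with no overlap with the next. Lyz2 continued with CD8 Flica-negative, CD4 Flica-negative and CD4 control, each without overlap with its neighbour, and CD4 and CD8 controls overlapped. Cd163 continued with CD4 control, which overlapped none of its neighbours. For the other members the lower neighbours overlapped, except that CD8 control lay above CD4 control without overlap for Mrc1. Both CD4 populations were at 0 for Mertk and had no order.

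Across the 15 libraries the pattern of a member was compared with that of every listed gene averaging 50 or more normalized counts, by Pearson's r of log2 values with 1 added. The libraries share populations and scaling, so r describes these libraries only. Most like Lyz2 were Mrgpra2b (0.98), Csf2rb (0.98) and Retnlg (0.98), of which Retnlg is on the neutrophil list. Most like Cd14 were Pygl, Dstn and Alox5ap (all 0.97), and most like Spic was Slc40a1 (0.89), followed by mt-Rnr2 (0.86) and Wdfy3 (0.84). Cd163 was led by Sdc3 (0.95), Pafah2 (0.89) and Iglv1 (0.87), Mertk by Wfdc17 (0.96), Tfec (0.94) and Tyrobp (0.94), and Fcgr1 by Dach1 (0.96), Met (0.96) and Wdfy3 (0.95). Adgre1 was led by Rab32, Myof and Igsf6 (0.93 to 0.90), Mrc1 by Acod1, Pgam1-ps2 and B4galt6 (0.90 to 0.89), and Vcam1 by Clec12a, Gm19719 and Alox5ap (all 0.93).

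Among the members themselves, the 36 pairs had r from 0.16 (Cd14 with Cd163) to 0.94 (Cd14 with Lyz2), with a median of 0.75. Without the 3 CD8 Flica-positive libraries the pairs ran from -0.76 to 0.80 and the median was 0.21, so that most of the likeness among the 9 markers came from the CD8 Flica-positive libraries that all of them share. The lowest pair there was again Cd14 with Cd163.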

How the data were processed

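RNA-seq was done on 15 libraries, 3 for each of 5 sorted populations, grouped by their labels. The authors aligned reads with STAR 2.7.1a to GRCm38 and used DESeq2, per their processing notes; the counting tool and annotation are not given in the sources used here. Each of 4 deposited gene tables holds raw counts for all 15 libraries, and a mean expression signal that the authors computed from counts divided by size factors. The size factors were recovered from these 2 columns (largest relative error 5.3e-15). The authors' own fold changes, p-values and enrichment tables hold their findings and were not used. The 4 tables list 4567 genes, selected on these same libraries. Members and gene lists were chosen with earlier results of these data known.

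Normalized counts are counts divided by the size factor, given as mean ± SD (n = 3). Groups with no library above 3 counts were taken at that floor, and folds against them are lower bounds for counting error only. Tests used edgeR 4.0.16 (R 4.3.3, limma 3.58.1), quasi-likelihood, on the 2 populations compared, with two-sided Benjamini-Hochberg adjusted p over all listed genes with counts there and a threshold of 0.05. p-values measure the spread between these libraries, which may hold cells of shared mice. Alternatives were TMM and DESeq2 1.42.0 size factors, DESeq2's Wald test, a replicate block, all 5 populations, a minimum mean of 10 and leaving out each library. The fit was tested on simulated counts. Named genes were the 9 members, the 3 genes most like each, and the 4 of each list with the highest mean; others are named as members that passed or as chosen after their values were seen. Positions and exon lengths are from GENCODE M21 (GRCm38), and promoters from RefSeq (GRCm38.p6). Plots used matplotlib 3.10.9 in Python 3.11.15.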

Additional observations from a re-analysis of the deposited data

How the results depend on the processing

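In the day 7 comparison of Flica-negative CD4 and CD8 cells, the number of members that passed was 1 and became 2 with the replicate block, 2 with DESeq2's Wald test and 2 with all 5 populations in the fit, and 1 to 3 when each library was left out. Lyz2 passed under all 12 alternatives (adjusted p up to 0.0204, edgeR and DESeq2). The members that joined were Cd14 and Mertk. The genes called among all listed fell from 1017 to 640 with all 5 populations. On day 0 the number was 1 and became 0 with all 5 populations in edgeR, where Cd163 missed the threshold (adjusted p = 0.136), and ran from 1 to 1 when each library was left out. For Cd163 the adjusted p in edgeR ran from 0.00221 to 0.0418 over the left-out libraries. Same-numbered libraries of the compared populations had correlated deviations of 0.0282 to 0.113 on day 7 and 0.0267 to 0.0963 on day 0, with 6 of 6 libraries closest to their own number, a hint from the data and not from the labels. Since not every pair was over 0.1, the numbers were not taken as pairs, and the block, under which Cd14 passed (edgeR adjusted p = 0.0104), is an alternative only. With it the genes called among all listed were 1290 rather than 1017 on day 7 and 686 rather than 554 on day 0.

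Members above the control without overlap numbered 3 to 5 in CD8 Flica-negative cells and 3 to 4 in CD4 Flica-negative cells when each library was left out, with 5 without CD8 Flica-negative replicate 3. Without CD4 control replicate 3, 2 members rather than 1 were below. With TMM scaling Lyz2 no longer cleared the CD4 controls, and with DESeq2 size factors over the listed genes the number above was 1 in CD4 Flica-negative cells and 2 in CD8 Flica-negative cells, where Fcgr1 was lost. Members below numbered 1 to 2 in CD4 Flica-negative cells. When a library was left out, members that missed the threshold changed sign: on the log2 scale Mrc1 ran from -0.26 to 0.86 and Spic from -1.50 to 1.67 on day 7, and Vcam1 from -2.46 to 0.20, Fcgr1 from -3.13 to 2.80 and Lyz2 from -0.0615 to 0.64 on day 0. The median r over pairs of members was 0.868 with 10 added in place of 1 and 0.212 without the CD8 Flica-positive libraries. In CD8 Flica-positive cells all 9 members kept a positive log2 fold change under all 90 combinations of member and alternative in each comparison. Low counts limit what can be seen, with no library over 3 reads for Mertk in 3 populations, Fcgr1 in 2, and Mrc1 and Spic in CD4 controls.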
